A study of Mus musculus with 8 samples.

Results

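The mammalian circadian clock is built from a small set of transcription factors and their repressors, and 10 of its genes are described here: Clock, Arntl, Per1, Per2, Per3, Cry1, Cry2, Nr1d1, Nr1d2 and Dbp. They were chosen by name, as 10 of the 21951 protein-coding genes of the mouse annotation, and every deposited region that overlapped one of them, or lay within 10 kb of it, was counted. The measurement was ATAC-seq, in which a transposase inserts sequencing adapters into open chromatin. It was made on nuclei of frozen liver from adult C57BL/6 mice, named C57BL/6J in the paper. It covered 4 control and 4 Alb-D2KO libraries, each made from 50000 nuclei. Alb-D2KO mice carry floxed Dio2, the gene of the type 2 deiodinase that activates thyroxine, together with Cre recombinase under the albumin promoter, so that Dio2 is inactivated in hepatocytes. The library titles label the controls "cre", and the genotype label reads control. The libraries of a genotype were pooled before open regions were called, so no region has a replicate error and no difference between the genotypes could be tested. The hour of day at which the livers were taken is not given in the sources used here, and neither list contains a value by time.

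In the clock, CLOCK and BMAL1, the product of Arntl, form a dimer that binds E-boxes and switches on the Per, Cry, Nr1d and Dbp genes. PER and CRY proteins return to the nucleus and hold this dimer back, while the REV-ERB receptors encoded by Nr1d1 and Nr1d2 repress Arntl. DBP binds D-box elements and carries the rhythm to output genes, and in liver the clock times much of glucose, lipid and bile acid metabolism.

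An RCA (reduced chromatin accessibility) is a region called open in the control libraries that met no open region of the Alb-D2KO libraries. The control list held 8031 RCAs, and the reverse list held 250 regions found in Alb-D2KO liver alone. The area of a region is its −log10 p summed along its length (area under the curve, AUC), so it grows with both height and width. The stretches around the summits of 6 RCAs are shown as examples, chosen after their values were seen: the RCA of highest area at each of Per1, Per2, Cry2 and Dbp, an RCA of Per1 with an E-box, and an RCA that overlaps exons of Dbp. All are from GRCm38, the assembly of mm10, and are written 5′ to 3′ on the strand of the named clock gene. The windows are an intron of Per1 (chr11:69097577-69097726, plus strand), an intron of Per1 beside an internal start site (chr11:69099890-69100039, plus strand), and an intron of Per2 (chr1:91456560-91456709, minus strand). The others are intergenic sequence upstream of Cry2 (chr2:92438047-92438174, minus strand), a stretch inside Dbp (chr7:45708175-45708324, plus strand) and a coding exon of Sphk2 just past the end of Dbp (chr7:45710728-45710838, plus strand of Dbp). The stretch inside Dbp, labelled Dbp exon, overlaps a coding exon and an exon of a noncoding transcript. How many of its bases are exonic in the coding transcripts was not counted. Capitals mark the E-box CACGTG and the hexamer AGGTCA, which ROR and REV-ERB receptors bind and which reads TGACCT on the other strand.
Per1 intron, upstream of an internal start: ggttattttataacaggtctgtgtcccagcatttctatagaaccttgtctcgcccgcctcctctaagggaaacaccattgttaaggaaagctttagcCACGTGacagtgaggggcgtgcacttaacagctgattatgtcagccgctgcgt
Per1 intron, at an internal start: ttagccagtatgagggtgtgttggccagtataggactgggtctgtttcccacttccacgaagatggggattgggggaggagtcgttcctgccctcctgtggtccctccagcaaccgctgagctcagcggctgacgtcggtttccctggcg
Per2 intron: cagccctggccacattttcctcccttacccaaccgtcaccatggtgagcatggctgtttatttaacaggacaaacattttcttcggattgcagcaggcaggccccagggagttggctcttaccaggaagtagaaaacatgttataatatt
Cry2 upstream: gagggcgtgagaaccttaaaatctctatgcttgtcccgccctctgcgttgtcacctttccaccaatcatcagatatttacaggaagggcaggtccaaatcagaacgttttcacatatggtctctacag
Dbp exon: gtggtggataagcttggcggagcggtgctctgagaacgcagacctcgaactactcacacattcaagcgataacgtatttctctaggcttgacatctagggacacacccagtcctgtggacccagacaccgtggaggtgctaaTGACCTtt
Dbp end, Sphk2 exon: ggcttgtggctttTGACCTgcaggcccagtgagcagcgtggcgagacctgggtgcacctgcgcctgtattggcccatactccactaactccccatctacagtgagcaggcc

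At the clock genes there were 14 RCAs and 0 regions of the reverse list. The RCAs were at 4 of the 10 genes, with 6 at Per1, 4 at Dbp, 3 at Per2 and 1 at Cry2. The 14 became 7 with an area of at least 300, 8 with the gene body only and 29 with a flank of 50 kb. At 50 kb 7 genes had an RCA, and no share of all genes was taken at that flank. Within 10 kb, the genes with RCAs encode PER repressors, a cryptochrome and the output factor. The 6 without were the activators Clock and Arntl and the repressors Per3, Cry1, Nr1d1 and Nr1d2. Repressors were thus on both sides, and a link between role and RCAs was not tested. Of all protein-coding genes, 25.1% had at least 1 RCA within 10 kb, and 1.01% had a region open only in Alb-D2KO liver. With 10 genes, 4 with an RCA is not far from that background, whereas 3 of the 10 had at least 3 RCAs, against 3.79% of all protein-coding genes. That count of 3 depends on the rule, and fell to 1 under each of a pair of alternatives chosen after seeing the data. When a region counted only for the gene with the nearest coding start, Per1 alone kept at least 3 (1.78% of all genes), and with an area of at least 300 Per2 alone did (0.989%). An RCA overlapped the gene body of 3 clock genes (Per1, Per2 and Dbp), against 15.7% of protein-coding genes. The number of open regions differed between the genotypes as a whole, since the highest region number in the control list was 22367 and that in the Alb-D2KO list 14824, and the part of this in the counts at clock genes was not tested. In bulk liver, fewer nuclei of a cell type and less open chromatin per nucleus cannot be told apart.

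Gene length sets how many regions can fall in a window, so each clock gene was set beside the protein-coding genes between 2/3 and 3/2 of its length. The share of these with an RCA ran from 18.2% for Dbp, a gene of 5.12 kb, to 34.5% for Arntl, a gene of 107 kb. This order depends on the neighbours, because among genes that also had as many coding starts in their window, a comparison chosen after seeing the data, the share was 42.5% for Dbp and the lowest was 12.5%, for Nr1d1. Clock, at 94.9 kb, had 34.2% beside it, so at this length genes without an RCA were more common than genes with 1, and having none does not set Clock and Arntl apart. At Per1, 6 of 4701 genes of similar length had 6 or more RCAs, Per1 included, a share of 0.128%. The others, named after their values were seen, were Tsku with 8, Slc38a3 with 7, and Afmid, Sdc4 and Smarcd1 with 6 each. At Dbp, 22 of 3559 genes (0.618%) had 4 or more, and at Per2 171 of 3962 (4.32%) had 3 or more. Dbp sits among close neighbours, and among the 146 genes of similar length with as many coding starts, 4.11% had 4 or more.

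**Figure D1:**
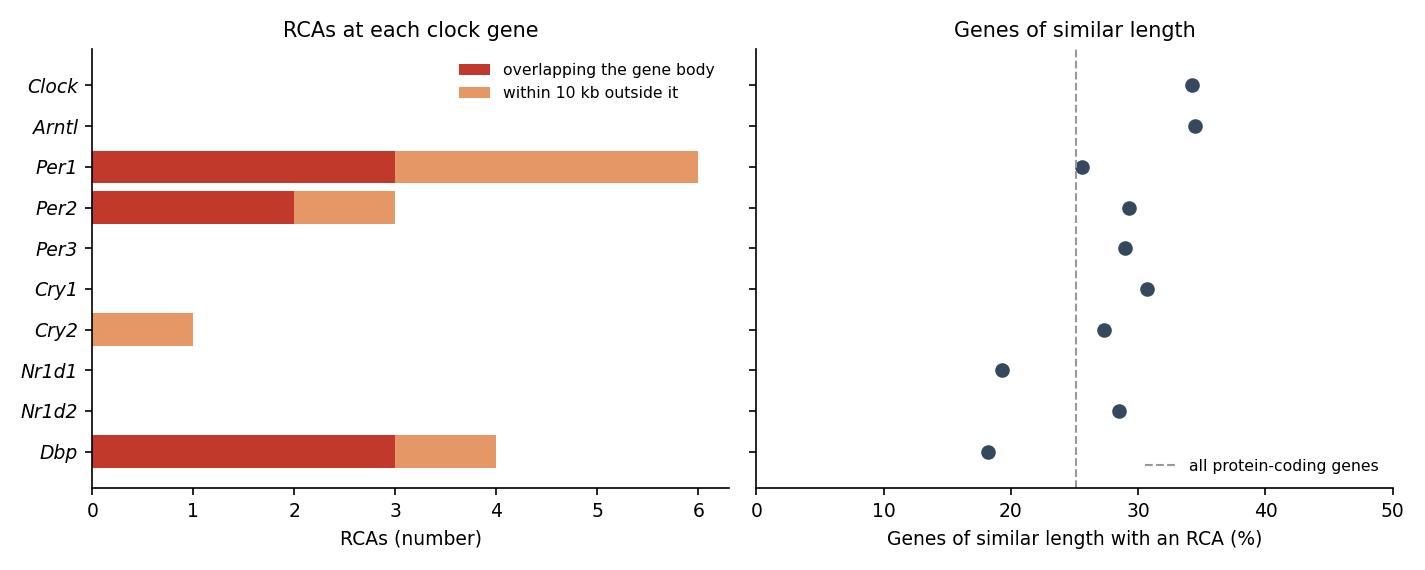
Left, number of RCAs at each of the 10 clock genes, split into those overlapping the gene body and those within 10 kb outside it. Right, percentage of protein-coding genes of similar length with at least 1 RCA, with a dashed line at the 25.1% of all protein-coding genes. Per1 has 6 RCAs, Dbp 4, Per2 3 and Cry2 1, and 6 genes have none.

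The activators had no RCA within 10 kb. Clock, whose protein is the DNA-binding partner of BMAL1, lies on the minus strand at chr5:76209868-76304792, and the nearest RCAs were 284 kb upstream, in an intron of Cep135, and 1055 kb downstream, in an intron of Pdgfra. Arntl lies on the plus strand at chr7:113207465-113314126, and its nearest RCAs were 381 kb upstream, in Tead1, and 707 kb downstream, in Spon1. Region numbers of a genotype follow the order of the genome, and the numbers missing between RCAs were read as control regions removed because they overlapped an open region of Alb-D2KO liver. The full calls were not used here, so every count of shared regions rests on this reading. Between the RCAs on either side, 8 such shared regions lay in the 1434 kb around Clock and 5 in the 1194 kb around Arntl. Their positions within these stretches are not known from the lists.

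Per1, a light- and hormone-responsive repressor of the clock, had the most RCAs of the 10 genes within 10 kb. With the gene body only, Per1 and Dbp had 3 each. With an area of at least 300, Per2 had 3, and Per1 and Dbp had 2 each. Per1 spans chr11:69095217-69109960 on the plus strand, 14.7 kb, with 6 annotated start sites. An RCA of area 356.5 at chr11:69095468-69096087 lay in an intron, 251 bp past the first start site and so just outside the 200 bp that define a promoter region here. A narrower intronic RCA of 225 bp (chr11:69097577-69097801, area 281) held the E-box capitalised in the printed sequence, 25 bp from its summit and 1274 bp before the next start site of a coding transcript. The RCA with the highest area at Per1, 405, at chr11:69099734-69100210, spanned intron and 5′ UTR and covered the start sites of 2 coding transcripts. It contained all 300 bases of a listed RefSeq promoter of Per1, while the other listed Per1 promoter, at chr11:69098699-69098998, overlapped no RCA. All 3 intragenic RCAs ended before the last annotated start site of the gene.

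The other 3 RCAs of Per1 lay outside the gene body. An intergenic RCA at chr11:69092441-69092625 (185 bp, area 253) was 2592 bp upstream of the gene, and Per1 had the nearest coding start. A wider RCA at chr11:69088254-69088879 (626 bp, area 269.9) was a promoter region of Vamp2, the gene of a vesicle fusion protein. The RCA at chr11:69118747-69118979 (233 bp, area 253) was 8787 bp past the end of Per1, and Hes7 had the nearest coding start, 1425 bp away. From the Vamp2 promoter to this last RCA, a run of 30.7 kb, the control call had 9 regions, of which 6 were RCAs and 3 were shared with Alb-D2KO liver. Such a run starts and ends at an RCA by definition, so only the regions between its ends can be set beside the genome. At Per1 these were 7, of which 4 were RCAs, and over the whole genome RCAs were 35.9% of the control regions by number. By the same reading, 1 shared region lay in the gap of 2842 bp that holds the first start site of Per1.

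Per2, which encodes a repressor like that of Per1, had fewer RCAs within 10 kb, with a higher top area. The gene spans chr1:91415982-91459324 on the minus strand, 43.3 kb. Its RCA of highest area, 536, at chr1:91456399-91457092 (694 bp), lay in an intron 2232 bp inside the gene start and ranked above 95.9% of all RCAs. That rank goes with its width, which exceeded that of 95.4% of RCAs, while its area per bp, 0.772, exceeded that of only 32.5%. A second RCA inside the gene, at chr1:91420278-91421023 (746 bp, area 307), overlapped coding exon sequence in the last part of the gene, although the 150 bp around its summit were intronic. The third, at chr1:91414112-91414574 (463 bp, area 456), lay 1408 bp past the end of Per2 and within 200 bp of a start site of Hes6. In this run of 43.0 kb the control call had 8 regions, 5 of them shared, and of the 6 between the RCAs at its ends only 1 was an RCA, a lower share than over the genome. The start of Per2 itself was in the next gap, with 10 shared regions over 673329 bp. Per3, a period gene that is not needed for the core rhythm, had no RCA, and the nearest were 28.8 kb upstream, in Camta1, and 99.9 kb downstream, in Park7.

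**Figure D2:**
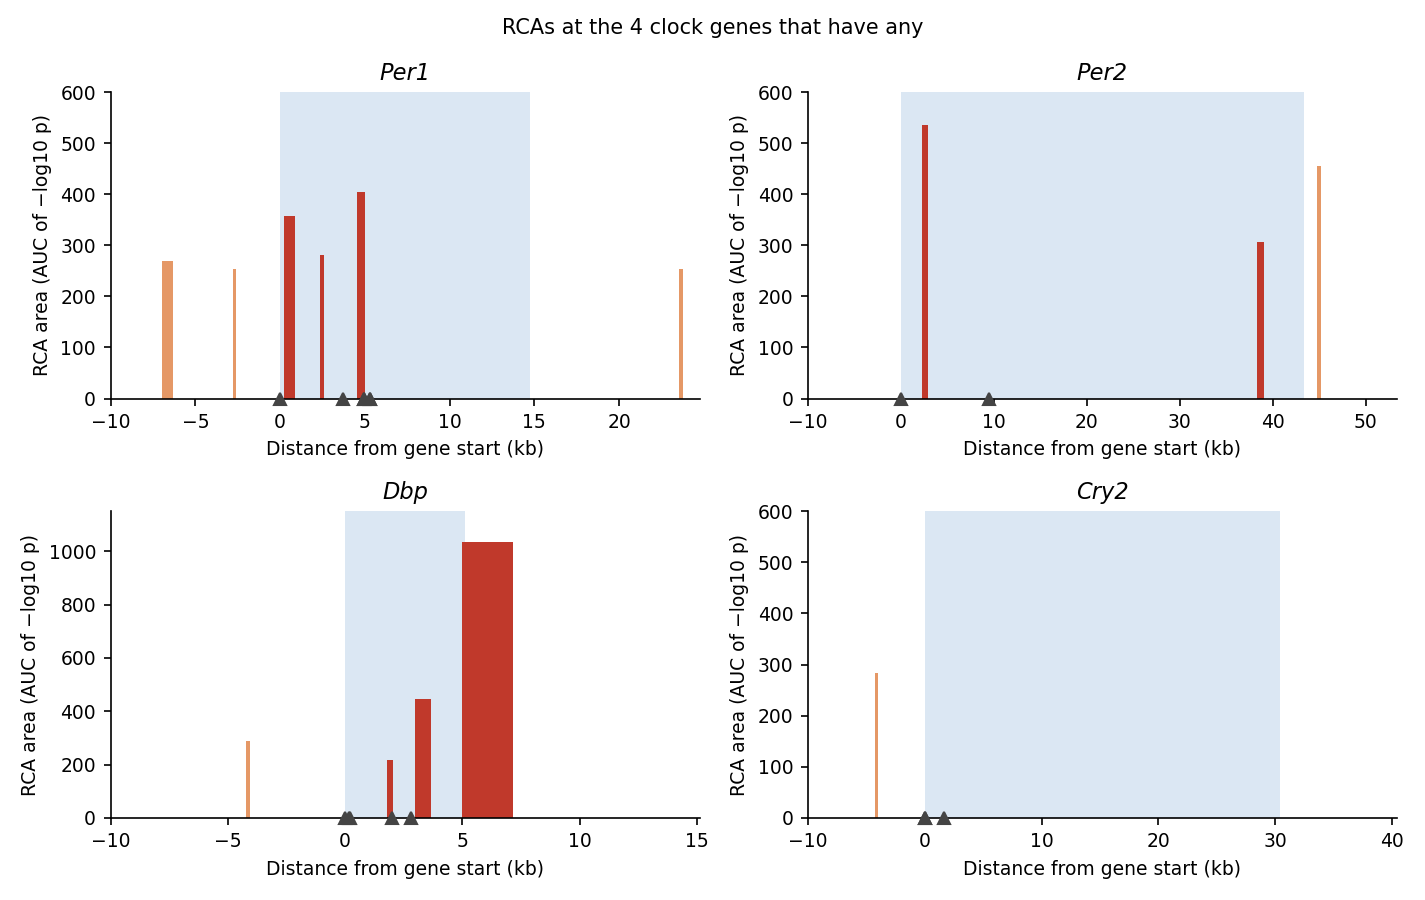
RCAs at Per1, Per2, Dbp and Cry2. The x axis is the distance from the gene start in kb, in the direction of transcription, and the y axis the area of each RCA (AUC of −log10 p), with its own scale for Dbp. Shading marks the gene body, triangles mark annotated start sites, bars are as wide as the regions, dark bars overlap the gene body and light bars lie outside it. The RCAs inside Per1 lie near its start sites, and the widest bar, at the end of Dbp, reaches 1036.

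The cryptochromes, which hold the CLOCK and BMAL1 dimer back together with PER proteins, had 1 RCA between them. It was at Cry2 (chr2:92403646-92434043, minus strand), as an intergenic region of 212 bp and area 283 at chr2:92438047-92438258. This RCA lay 4004 bp upstream of Cry2, which had the nearest coding start, and its summit had the highest −log10 q of the 14, 3.7. Among genes of similar length to Cry2, 27.3% had at least 1 RCA, so a single region is common at genes of this size. Cry1 (chr10:85131700-85185064, minus strand) had no RCA within 10 kb, and the nearest was 29.1 kb downstream, a promoter region of Fhl4 and Tmem263. There were 9 shared regions in the 962.4 kb between the RCAs on either side of Cry1.

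The REV-ERB genes also had no RCA by the distance used. Nr1d1 (chr11:98767932-98775333, minus strand) overlaps Thra, a thyroid hormone receptor gene, on the opposite strand. It came closest to the limit of 10 kb, with an intergenic RCA 10.5 kb upstream (324 bp, area 254.5) and an RCA in an intron of Thra 12.8 kb downstream (341 bp, area 221). Between them, 3 shared regions lay in 30.68 kb around the gene. Nr1d2 (chr14:18204054-18239127, minus strand) had its nearest RCAs 79.0 kb upstream, in Ube2e1, and 286 kb downstream, in Thrb, which encodes the other thyroid hormone receptor. Just inside the limit, the farthest counted RCA was the 1 at 8787 bp from Per1.

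At Dbp, 4 RCAs were counted, and the widest of them lay mostly outside the gene. The gene spans chr7:45705088-45710203 on the plus strand. The RCA at chr7:45710083-45712228 was 2146 bp wide with an area of 1036, and ranked 11 among the 8031 RCAs. That rank goes with its width, since its area per bp, 0.483, exceeded that of only 4.27% of RCAs, and its summit had a −log10 q of 2.74, below the median of 3.14. Only 121 bp of it overlapped Dbp, in the 3′ UTR, its summit was in a coding exon of Sphk2, a sphingosine kinase gene, and the nearest coding start was that of Rpl18, 3229 bp away. Inside Dbp, an RCA of 684 bp (chr7:45708084-45708767, area 445) overlapped a coding exon and an exon of a noncoding transcript. Another of 273 bp (chr7:45706879-45707151), with an area of 215 the lowest of the 14, covered coding exon and intron. Both were promoter regions through start sites of transcripts with a retained intron, inside the gene. The remaining RCA (chr7:45700842-45701040, 199 bp, area 287) was a promoter region of Car11, 4048 bp upstream of Dbp.

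The start of Dbp itself was not in an RCA. The nearest RCA began 1791 bp past it, and the gap of 5838 bp that holds the start had 2 regions shared with Alb-D2KO liver. The listed RefSeq promoter of Dbp overlapped no RCA either. From the Car11 promoter to the end of the widest RCA, 11.4 kb, the control call had 7 regions, and of the 5 between the RCAs at its ends 2 were RCAs, close to the share over the genome.

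By start sites, 2 of the 10 clock genes had an RCA within 200 bp of an own start site, Per1 and Dbp, against 5.94% of protein-coding genes. In both genes those start sites were internal. With the start of the gene in place of all start sites, the count fell to 0, and with start sites of protein-coding transcripts only, chosen after seeing the data, it was 1 (Per1). The 5.94% holds for all start sites, and no share of all genes was taken under these narrower rules. The call of a promoter RCA at a clock gene therefore depends on which annotated start is used.

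Taking the 14 RCAs as a group, their median area was 296.9, against 278 for all RCAs (quartiles 232 and 351). Of the 14, 10 were above the median of all RCAs and 6 above the upper quartile. Their median width was 470 bp, against 326 bp for all RCAs, and the median −log10 q of their summits was 3.30, against 3.14. The widest of the 14, at the end of Dbp, also had the highest area. By class, 6 were promoter regions, 2 exonic, 3 intronic and 3 intergenic, and over all RCAs the shares were 19.4%, 10.2%, 40.0% and 30.4%. The 14 lie within 10 kb of a coding gene by the rule, and all RCAs include regions farther away. Neither the classes nor the medians therefore compare like sets. Of the 6 promoter regions, 3 were at a start site of a neighbour (Vamp2, Hes6 and Car11) and 3 at an internal start site of Per1 or Dbp.

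**Figure D3:**
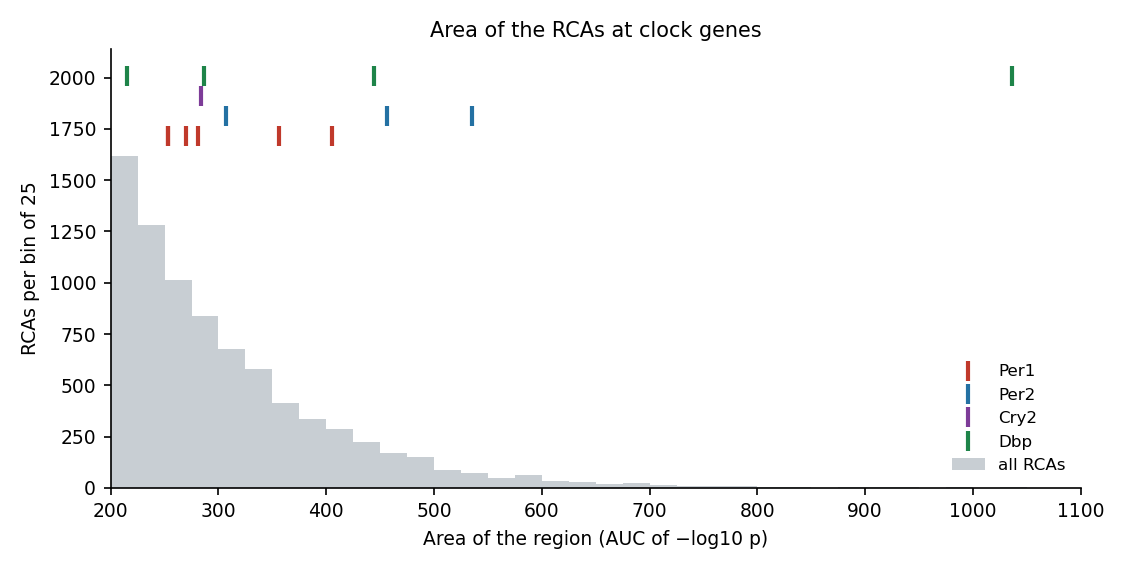
Histogram of the area (AUC of −log10 p) of all RCAs in bins of 25, with 8 RCAs past the right edge. Coloured ticks above the bars mark the areas of the RCAs at Per1, Per2, Cry2 and Dbp, and the height of a tick has no meaning. Of the 14, 1 RCA of Dbp lies at 1036 and the others between 215 and 536.

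Clock motifs, and a direct repeat that is not taken as one, were searched on both strands in 300 bp centred on each summit. The E-box CACGTG was in 2 of the 14 windows, at Per1 and at the end of Dbp, and in 7.47% of all RCA windows of the same length. The D-box TTATGTAA was in 0 of the 14 and in 1.47% of all windows. The hexamer AGGTCA was in 5 of the 14, at Per1, Per2 and Dbp, and in 30% of all windows, so these counts were close to those of RCAs in general. A direct repeat of the hexamer with 4 bases between, which contains the hexamer, was in 0 of the 14 and 0.0249% of all. With 100 bp around the summit, 1 window held an E-box (3.03% of all) and 2 held the hexamer (13.6%).

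Of the listed RefSeq promoters on GRCm38.p6, from 250 bases before to 50 after a start, 13 belonged to 9 of the 10 clock genes. Per2 had no entry. Some genes have several listed promoters, which can overlap, so promoters and not genes were counted. The E-box was in 2 of the 13, of Per1 and Cry1, against 7.15% of all 32851 promoters, and the D-box in 1, of Per3, against 0.938%. The hexamer was in 4 of the 13, of Arntl, Clock, Nr1d2 and Per1, against 16.3% of all. The Per1 promoter with the E-box was the one that no RCA overlapped, and the one inside an RCA held none of these motifs.

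Other genes of the clock were counted in the same way. Of 25 further regulators, 8 had an RCA, a share of 32.0% and near the 25.1% of all protein-coding genes. None had a region open only in Alb-D2KO liver, which 1.01% of all protein-coding genes had. The 5 with the highest areas were Bhlhe40 (660), a repressor at E-boxes, Rora (435.6), which activates at the elements that REV-ERB proteins occupy, Hlf (396), a D-box factor related to DBP, Timeless (349) and the deacetylase gene Sirt1 (294). The RCAs of highest area at Bhlhe40 and Sirt1 lay outside the gene body, and those at Rora, Hlf and Timeless overlapped it. Hlf had 7 RCAs, all overlapping its body of 54.4 kb, and Rora had 7 in introns of its 734 kb. The close relative Tef, the third factor of the DBP family, had 0.

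Of 25 genes under clock control in liver, 18 had an RCA, or 72.0%, against 25.1% of all protein-coding genes. These 25 were picked by name with earlier results of these data known, and were not set beside genes of similar length or with similar neighbours. The count with a region open only in Alb-D2KO liver was 0, where the share over all protein-coding genes, 1.01%, leaves little room for any. The highest areas were at Alas1 (939), the rate-limiting enzyme of heme synthesis, Ppara (730), the fatty acid receptor, Slc2a2 (682), a glucose transporter, G6pc (577), of glucose output, and Cdkn1a (554), a cell cycle inhibitor. Those at Alas1 (2703 bp wide) and Ppara (1139 bp wide) were intergenic and outside the gene. Those at Slc2a2, G6pc and Cdkn1a overlapped the gene. Several of the named genes serve hepatocyte metabolism, and 5 of 6 hepatocyte marker genes (not Cps1) had an RCA as well. Among markers of other liver cells, RCAs were at 0 of 3 for Kupffer cells, 2 of 3 for endothelium, 0 of 3 for stellate cells, 1 of 3 for bile duct and 0 of 3 for immune cells. Together these were 3 of 15, or 20%, near the 25.1% of all protein-coding genes. The lists hold only regions that differed between the genotypes, so the cell types present could not be checked with them, and the part of hepatocyte genes in the output list was not tested.

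**Figure D4:**
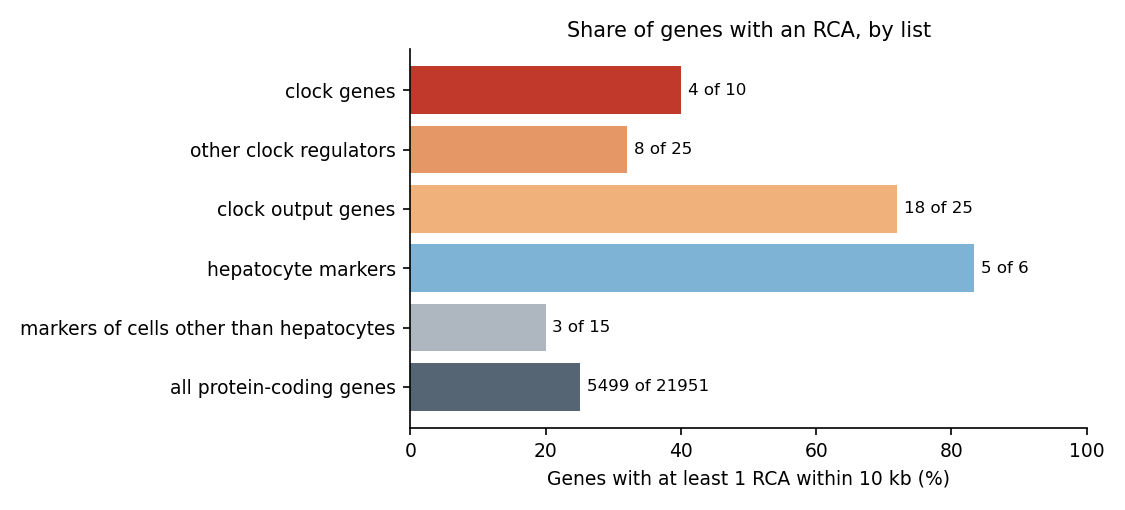
Percentage of genes with at least 1 RCA within 10 kb, for each gene list, with the number of genes beside each bar. The clock genes (4 of 10) and other clock regulators (8 of 25) lie nearer to all protein-coding genes (5499 of 21951) than the clock output genes (18 of 25) and hepatocyte markers (5 of 6) do.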

How the data were processed

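ATAC-seq libraries of 4 control and 4 Alb-D2KO livers were processed by the authors, who removed adapters with NGmerge, aligned reads to mm10 with BWA 0.7.17, and called regions with Genrich 0.6 on the pooled libraries of each genotype (the submitters' notes also name FastQC and Picard). They then subtracted regions that overlapped a region of the other genotype. Run on single samples, Genrich had found only few regions, which the paper judged not to come from ATAC enrichment. Those regions were merged and left out of the pooled call. The deposited signal is the area under the curve of −log10 p, and the deposited −log10 q belongs to the summit, whose offset is another deposited column. Depth per library is unknown from these lists.

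Regions were matched to GENCODE M21 genes with Python 3.11.15, pandas 2.3.3 and numpy 2.4.6, by an overlap of at least 1 bp with the gene body or 10 kb on either side. The paper names a later release of GENCODE, so start sites and classes may differ from those it used. A promoter region lay within 200 bp of an annotated start site, and classes were assigned in the order promoter, exon, intron, intergenic. The counting step was tested on simulated intervals. The 10 genes and the lists were chosen with earlier results of these data known. All 10 were named with every region, and from each further list the 5 genes with the highest area. No test between genotypes was made. Alternatives covered the flank, area, q, width, merging, midpoint, start sites, similar length and motif window.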

Additional observations from a re-analysis of the deposited data

How the results depend on the processing

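No library could be left out and no paired analysis was possible because each genotype has a single pooled call. The 14 RCAs at clock genes became 8 with the gene body only, 29 with a flank of 50 kb and 7 with an area of at least 300. They became 8 when a region counted only for the gene with the nearest coding start, an alternative chosen after seeing the data like all those on neighbouring genes, genes with at least 3 RCAs, RefSeq extents, coding transcripts and the further lists. The 4 clock genes with an RCA became 7 with a flank of 50 kb, and stayed within 3 to 5 under the other alternatives. No share of all protein-coding genes was taken at 50 kb, so counts at that flank have no background beside them. The 3 clock genes with at least 3 RCAs became 1 with an area of at least 300, 1 with the nearest coding start only and 5 with a flank of 50 kb. The 2 genes with a promoter RCA became 0 with the start of the gene only and 1 with protein-coding transcripts only, rules for which no share of all genes was taken. Regions open only in Alb-D2KO liver stayed at 0 with flanks of 20 and 50 kb, and the stricter rules could only leave them at 0. The mean share of similar-length genes with an RCA, 27.6%, became 29.6% with the same number of coding starts, rising from 18.2% to 42.5% for Dbp and falling from 19.3% to 12.5% for Nr1d1. With 100 bp around the summit, E-box windows fell from 2 to 1 and hexamer windows from 5 to 2. The 8 other clock regulators with an RCA became 4 with an area of at least 300, where no share of all genes with at least 1 RCA was taken. A region just under the caller's threshold in Alb-D2KO liver counts as lost, which the lists cannot show.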
